A study of Mus musculus with 24 samples.

Results

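The genes described here are 8 genes of cell adhesion and of the epithelial cytoskeleton: the cadherin genes Cdh1, Cdh2 and Cdh9, the adhesion molecule gene Epcam, the claudin gene Cldn6, and the keratin genes Krt8, Krt18 and Krt19. They were chosen by name, and each was read from the probe set annotated to its symbol alone with the highest mean over the 24 arrays. They make up 8 of the 19938 genes tested, and each had 1 such probe set. Not all of them are epithelial by their usual use: Cdh2 (N-cadherin) is better known from neural and mesenchymal cells, and Cdh9 is a type II cadherin known mainly from neurons.

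RNA came from D3, an established mouse embryonic stem cell line, in which either Prmt1 was knocked down (siPRMT1) or a scrambled sequence had been introduced (siSCR). PRMT1 is an enzyme that methylates arginines of histones and other proteins. Each line was measured on Affymetrix arrays in 4 states: undifferentiated cells, embryoid bodies of day 4 (cell aggregates that differentiate without the cytokine LIF), and such embryoid bodies treated for 12 h with either DMSO, the vehicle, or 5 micromol all-trans retinoic acid (ATRA). The 8 groups held 3 arrays each, of samples that the labels call biological replicates. All groups share the D3 background, culture in serum, and passages on gelatin without feeder cells before the experiment. The sources used here do not say whether the knockdown was stable or transient, how many clones each line comprised, or whether replicates came from separate cultures. P-values therefore measure the spread between these samples, which may be partly technical.

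Cadherins join neighbouring cells through their outer domains and bind catenins, which link them to actin, inside the cell. E-cadherin, the product of Cdh1, holds embryonic stem cells together in colonies, while claudins seal tight junctions and the keratins 8, 18 and 19 form the intermediate filaments of simple epithelia. Keratin filaments are built from pairs of a type II keratin (keratin 8) and a type I keratin (keratin 18 or 19), and in the early mouse embryo they mark trophectoderm and extraembryonic endoderm.

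The stretch just upstream of the start is shown for 4 members: Krt8 and Krt18, whose proteins pair and whose genes are near neighbours, and Cldn6 and Cdh9, whose levels spread most widely over the groups. The table of RefSeq windows used here (GRCm38.p6, 250 bases each) was matched for 5 of the 8 members, these 4 and Epcam. Krt8 was read on the minus strand at chr15:102004343-102004592, Krt18 on the plus strand at chr15:102027966-102028215, Cldn6 on the plus strand at chr17:23679115-23679364 and Cdh9 on the plus strand at chr15:16728665-16728914. Capitals mark the motifs that were searched on both strands: the GATA box AGATAA, the E-box CAGGTG bound by Snail and Zeb proteins, the nuclear receptor half-site AGGTCA, the GC box GGGCGG and the TATA box TATAAA.
Krt8: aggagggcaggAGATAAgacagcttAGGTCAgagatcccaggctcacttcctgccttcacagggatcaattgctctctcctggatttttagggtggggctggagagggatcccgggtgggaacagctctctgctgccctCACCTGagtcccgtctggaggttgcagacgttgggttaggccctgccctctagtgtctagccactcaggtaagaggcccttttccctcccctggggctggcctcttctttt
Krt18: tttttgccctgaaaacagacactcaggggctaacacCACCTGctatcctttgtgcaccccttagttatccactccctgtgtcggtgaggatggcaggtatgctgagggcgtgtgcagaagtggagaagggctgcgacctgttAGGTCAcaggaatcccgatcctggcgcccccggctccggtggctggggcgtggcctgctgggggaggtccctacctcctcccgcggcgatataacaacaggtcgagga
Cldn6: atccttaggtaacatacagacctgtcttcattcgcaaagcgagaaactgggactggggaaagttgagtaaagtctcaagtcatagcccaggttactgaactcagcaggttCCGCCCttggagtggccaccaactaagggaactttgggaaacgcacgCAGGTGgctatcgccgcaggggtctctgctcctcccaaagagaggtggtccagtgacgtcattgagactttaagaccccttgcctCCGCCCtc
Cdh9: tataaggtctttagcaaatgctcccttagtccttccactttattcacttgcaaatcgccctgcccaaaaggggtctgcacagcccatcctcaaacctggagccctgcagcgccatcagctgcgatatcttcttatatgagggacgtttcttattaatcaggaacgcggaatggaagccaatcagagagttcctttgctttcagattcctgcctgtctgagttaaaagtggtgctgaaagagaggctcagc
The E-box occurred once in the windows of Krt8, Krt18 and Cldn6 and in 2 places in that of Epcam, and 17.2% of all 32851 RefSeq windows of this length held it. The half-site occurred in the windows of Krt8 and Krt18 (14% of all windows), the GATA box in that of Krt8 (9.99%), and the GC box in those of Cldn6, with 2 matches, and Epcam, with 1 (32.7%). The TATA box, held by 12.4% of all windows, was in none of the 5, and the Cdh9 window had no match to any of the 5 motifs. These are matches of letters and not measured sites. Krt8 and Krt18 are near neighbours on chromosome 15 in RefSeq, with 2 predicted genes between them.

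Below, a level is the log2 value the authors deposited, and a difference is a log2 fold change ± standard error from a limma fit to all 24 arrays, with n = 3 in every group. A call, higher or lower, needs a limma adjusted p under 0.05 over all 19938 genes. The number of arrays limits the precision, and the median standard error of a difference between 2 groups over all genes was 0.093. The targeted gene Prmt1 was at 9.60 to 9.79 in undifferentiated siPRMT1 cells and 10.95 to 11.10 in siSCR cells. It kept 38.6% of the control level in undifferentiated cells, 64.6% at day 4, 46.2% with DMSO and 36.7% with ATRA. Its own difference between the lines changed with embryoid body formation by 0.74 ± 0.087 (limma adjusted p = 2.64e-06). With ATRA it changed by -0.33 ± 0.087 (limma adjusted p = 0.0396). The part of these changes in the member differences was not tested. The 6 siSCR arrays of DMSO and ATRA stood apart from the other 18 in their SD over genes, 1.98 to 2.07 against 2.15 to 2.27. The correlation over genes was 0.951 to 0.973 across that border, always between different groups, and 0.990 to 0.999 between replicates. Correlations between different groups within the 18 were not computed, so the correlations alone do not set the 6 apart. The labels name no batch, so in comparisons across that border the treatment, the line and whatever set these arrays apart cannot be told apart. The model assumes 1 spread per gene in every group. In bulk RNA, fewer cells that express a gene and less of its RNA per cell cannot be told apart.

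The labelled states were checked against marker lists. The mean over 8 pluripotency genes was 11.6 in undifferentiated siSCR cells, and it stayed between 11.2 and 11.8 on all 24 arrays. Day 4 embryoid bodies of siSCR had 2 of the 8 higher, 1 lower and 5 not called against undifferentiated cells. The mean over 12 endoderm genes rose in embryoid bodies: it was 8.41 to 8.46 in undifferentiated siSCR cells and 9.51 to 9.72 at day 4, and 8.51 to 8.64 and 10.37 to 10.48 in siPRMT1. The mean over 12 fibroblast and feeder genes was 9.03 to 9.09 in undifferentiated siSCR cells and 8.55 to 8.60 in undifferentiated siPRMT1 cells, against 7.42 to 7.88 in all groups of embryoid bodies. Means over mesoderm, neural and trophectoderm genes each spanned less than 0.6 over the 24 arrays.

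**Figure D1:**
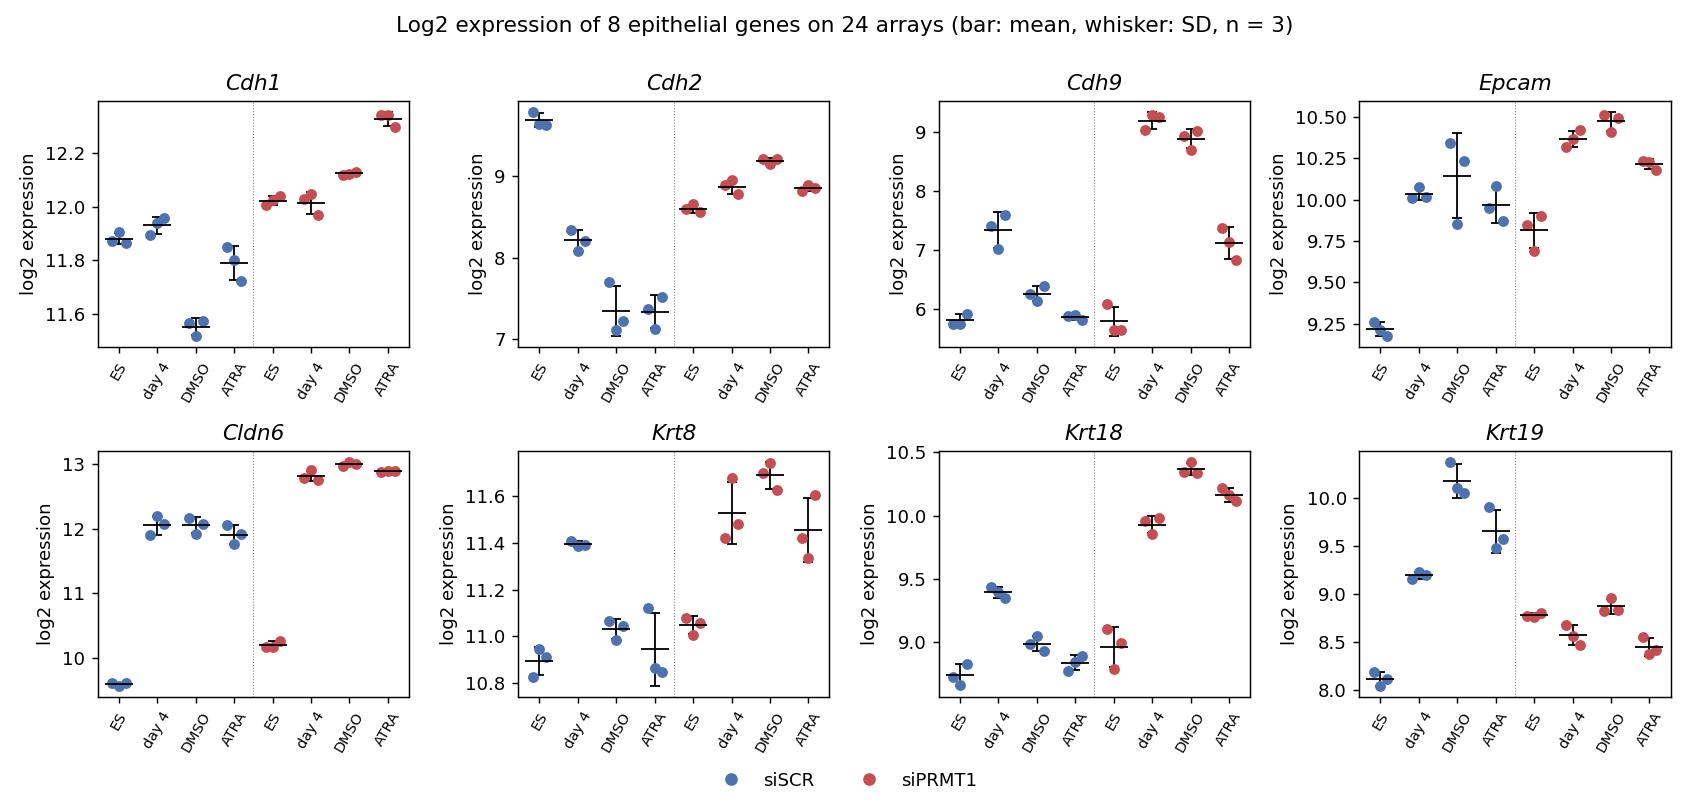
Log2 level of each of the 8 genes (vertical axes, 1 scale per gene) on every array of the 8 groups (horizontal axes), siSCR in blue to the left of the dotted line and siPRMT1 in red to the right. Points are arrays, bars are means and whiskers are SD with n = 3. Cdh2 is highest in undifferentiated siSCR cells, at 9.64 to 9.79, and Krt19 is highest in siSCR embryoid bodies with DMSO, at 10.05 to 10.37.

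The siPRMT1 line had more Cldn6 than the siSCR line in all 4 states, by 0.60 to 0.98. Epcam was also higher, by 0.25 to 0.60, except that its sign with ATRA turned under quantile normalization. Krt18 was 0.22 higher in undifferentiated cells and 0.54 to 1.39 higher in the 3 kinds of embryoid bodies. Cdh2 and Krt19 changed sign between states, in opposite ways. Cdh2 was lower by 1.09 in undifferentiated siPRMT1 cells and 0.66 to 1.84 higher in siPRMT1 embryoid bodies, while Krt19 was higher by 0.66 in undifferentiated siPRMT1 cells and its embryoid body differences were -0.63 to -1.31. Cdh9 differed little in undifferentiated cells (-0.017) and was 1.24 to 2.62 higher in siPRMT1 embryoid bodies.

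Cdh1, the E-cadherin gene, moved within a narrow range of 0.78 between its highest and lowest group. Its siSCR arrays read 11.86 to 11.90 in undifferentiated cells, 11.90 to 11.96 at day 4, 11.52 to 11.57 with DMSO and 11.72 to 11.85 with ATRA. The siPRMT1 arrays read 12.00 to 12.04, 11.97 to 12.05, 12.12 to 12.13 and 12.30 to 12.34 in the same states. Every siPRMT1 array therefore lay above every siSCR array, and siPRMT1 with ATRA was the highest group. In the order of the 8 groups, undifferentiated and day 4 arrays overlapped within each line, and the other neighbours did not overlap. Against siSCR, Cdh1 was 0.57 ± 0.044 higher with DMSO (limma adjusted p = 4.45e-10) and 0.54 ± 0.044 higher with ATRA (limma adjusted p = 1.09e-09). Both values shrank once arrays were scaled to one SD, to 0.23 with DMSO and to 0.10 with ATRA, where the call was lost (limma adjusted p = 0.10). Quantile normalization left 0.33 with ATRA. In undifferentiated cells the difference of 0.14 ± 0.044 had a limma adjusted p of 0.0281, but it was called in only 1 of 6 fits that left out an array (limma adjusted p up to 0.091), and at day 4 the difference of 0.085 ± 0.044 was not called (limma adjusted p = 0.213). Embryoid body formation gave Cdh1 differences of 0.050 ± 0.044 in siSCR and -0.0070 ± 0.044 in siPRMT1, neither called, with 95% intervals of -0.042 to 0.14 and -0.099 to 0.085.

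Cdh2, the N-cadherin gene, had its highest level in different states in the lines. On the siSCR arrays it read 9.79, 9.64 and 9.64 in undifferentiated cells, 8.35, 8.09 and 8.21 at day 4, 7.70, 7.12 and 7.23 with DMSO, and 7.37, 7.13 and 7.52 with ATRA. On the siPRMT1 arrays it read 8.59, 8.66 and 8.56, then 8.89, 8.95 and 8.78, then 9.22, 9.15 and 9.21, and finally 8.82, 8.89 and 8.86. Undifferentiated siSCR cells were thus the highest group and siSCR embryoid bodies the 3 lowest, while all siPRMT1 groups lay between them. Neighbours in this order overlapped only between siPRMT1 day 4 and ATRA, and between siSCR DMSO and ATRA. In siSCR, Cdh2 fell by 1.48 ± 0.11 from undifferentiated cells to day 4 (limma adjusted p = 1.77e-09), to 36.0% of its level. In siPRMT1 it was 0.27 ± 0.11 higher at day 4, without overlap of the arrays and not called (limma adjusted p = 0.063). It was called there in 5 of 10 other settings, among them one that left the 6 outlying siSCR arrays aside (limma adjusted p = 0.0026). The lines differed in this response by 1.74 ± 0.16 (limma adjusted p = 1.46e-07).

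Between the lines, the sign of the Cdh2 difference depended on the state. In undifferentiated cells siPRMT1 had 47.1% of the siSCR level, a fall of 1.09 ± 0.11 (limma adjusted p = 9.16e-07). Day 4 embryoid bodies had 0.66 ± 0.11 more in siPRMT1 (limma adjusted p = 0.000268), DMSO embryoid bodies 1.84 ± 0.11 more (limma adjusted p = 1.38e-11) and ATRA embryoid bodies 1.52 ± 0.11 more (limma adjusted p = 2.51e-10). The fibroblast and feeder list moved with Cdh2 among undifferentiated cells and with its fall in siSCR. Of its 12 genes, 9 were lower in undifferentiated siPRMT1 cells, and 10 were lower at day 4 in siSCR. In siPRMT1, 11 of the 12 were lower at day 4, where Cdh2 was not. At day 4 itself 6 of the 12 were lower in siPRMT1, where Cdh2 was higher. The part of these genes in the Cdh2 differences was not tested.

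Cdh9 encodes a type II cadherin of neurons. Its siSCR arrays read 5.75, 5.76 and 5.93 in undifferentiated cells, 7.40, 7.01 and 7.60 at day 4, 6.25, 6.14 and 6.39 with DMSO, and 5.89, 5.91 and 5.82 with ATRA. The siPRMT1 arrays read 6.08, 5.66 and 5.65, then 9.03, 9.28 and 9.25, then 8.93, 8.70 and 9.02, then 7.37, 7.14 and 6.83. Day 4 and DMSO embryoid bodies of siPRMT1 stood highest. Both undifferentiated groups and siSCR with ATRA overlapped at the bottom of the order, and siSCR day 4 overlapped with siPRMT1 ATRA. Embryoid body formation raised Cdh9 by 1.52 ± 0.15 in siSCR (2.88-fold, limma adjusted p = 4.69e-08) and by 3.39 ± 0.15 in siPRMT1 (10.5-fold, limma adjusted p = 1.86e-13), and the lines differed in this rise by 1.87 ± 0.21 (limma adjusted p = 1.43e-06). Its level in siPRMT1 was 1.85 ± 0.15 above siSCR at day 4 (limma adjusted p = 1.88e-08), 2.62 ± 0.15 with DMSO (limma adjusted p = 3.06e-12) and 1.24 ± 0.15 with ATRA (limma adjusted p = 2.41e-07). In undifferentiated cells the interval of the difference ran from -0.32 to 0.29, with all arrays of both lines below the lowest array median of 7.47.

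Epcam encodes a surface adhesion molecule of epithelia and of embryonic stem cells. Its siSCR arrays read 9.18 to 9.26 in undifferentiated cells, 10.01 to 10.08 at day 4, 9.85 to 10.34 with DMSO and 9.87 to 10.08 with ATRA. In siPRMT1 they read 9.69 to 9.90, 10.32 to 10.42, 10.41 to 10.51 and 10.18 to 10.24. Undifferentiated siSCR cells were lowest, without overlap with any other group, and only there and between siPRMT1 day 4 and ATRA did neighbours in the order separate. Epcam rose by 0.82 ± 0.089 in siSCR at day 4 (limma adjusted p = 3.05e-07) and by 0.56 ± 0.089 in siPRMT1 (limma adjusted p = 3.5e-05). The difference between the lines was 0.60 ± 0.089 in undifferentiated cells (limma adjusted p = 5.92e-05) and 0.34 ± 0.089 at day 4 (limma adjusted p = 0.0109). With DMSO it was 0.33 ± 0.089 (limma adjusted p = 0.00313), and 0.18 without the second siSCR DMSO array. With ATRA it was 0.25 ± 0.089 (limma adjusted p = 0.0192). Quantile normalization ended both of the last calls, with 0.067 for DMSO and -0.071 for ATRA, so the direction of the Epcam difference with ATRA depends on the scaling. The ATRA call was also lost without the third siSCR ATRA array (0.20, limma adjusted p = 0.083) and without the first siPRMT1 ATRA array (0.24, limma adjusted p = 0.0528).

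Cldn6 encodes a claudin known from embryonic stem cells and embryonic epithelia. On the siSCR arrays it read 9.61, 9.57 and 9.61 in undifferentiated cells, 11.90, 12.19 and 12.08 at day 4, 12.16, 11.92 and 12.07 with DMSO, and 12.05, 11.76 and 11.91 with ATRA. On the siPRMT1 arrays it read 10.16, 10.17 and 10.27, then 12.78, 12.90 and 12.75, then 12.97, 13.03 and 13.00, then 12.87, 12.89 and 12.89. The groups fell into steps: undifferentiated siSCR, undifferentiated siPRMT1, the 3 siSCR embryoid body groups, which overlapped, and the 3 siPRMT1 embryoid body groups, of which DMSO was highest and the others overlapped. Embryoid body formation raised Cldn6 5.48-fold in siSCR (2.45 ± 0.077, limma adjusted p = 2.92e-15) and 6.10-fold in siPRMT1 (2.61 ± 0.077, limma adjusted p = 6.65e-16). The difference between these rises was 0.15 ± 0.11, with an interval of -0.072 to 0.38, and was not called (limma adjusted p = 0.349). Cldn6 was higher in siPRMT1 by 0.60 ± 0.077 in undifferentiated cells (limma adjusted p = 1.02e-05), 0.76 ± 0.077 at day 4 (limma adjusted p = 5.52e-07), 0.95 ± 0.077 with DMSO (limma adjusted p = 9.7e-10) and 0.98 ± 0.077 with ATRA (limma adjusted p = 5.45e-10). Scaling the arrays to one SD left 0.54 and 0.52 for the last 2, both still called.

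The keratin pair Krt8 and Krt18 shared much of its pattern, with a correlation of 0.914 over the 24 arrays and 0.909 over the 18 outside the 6 siSCR arrays of DMSO and ATRA. Over the 18 arrays each keratin followed Cldn6 more closely, with 0.945 for Krt8 and 0.947 for Krt18. Over all 24 arrays they followed Cldn6 less closely than each other, with 0.757 and 0.782. These points share arrays and groups, and the values are given as descriptions. Krt8 arrays in siSCR read 10.83 to 10.94 in undifferentiated cells, 11.39 to 11.41 at day 4, 10.98 to 11.07 with DMSO and 10.85 to 11.12 with ATRA. In siPRMT1 they read 11.01 to 11.08, 11.42 to 11.68, 11.63 to 11.74 and 11.34 to 11.61. The 3 siPRMT1 embryoid body groups and siSCR day 4 formed an upper set and the other 4 groups a lower one, and neighbours overlapped within each set. Krt8 rose at day 4 by 0.50 ± 0.078 in siSCR (limma adjusted p = 3.53e-05) and by 0.48 ± 0.078 in siPRMT1 (limma adjusted p = 4.37e-05). Between the lines it differed by 0.15 ± 0.078 in undifferentiated cells and 0.13 ± 0.078 at day 4, neither called (limma adjusted p = 0.207 and 0.289). It was 0.66 ± 0.078 higher with DMSO (limma adjusted p = 3.04e-07) and 0.51 ± 0.078 higher with ATRA (limma adjusted p = 8.95e-06), values that became 0.36 and 0.17 with arrays scaled to one SD, the second no longer called (limma adjusted p = 0.0878). Quantile normalization left 0.23 with ATRA.

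Krt18 arrays in siSCR read 8.72, 8.66 and 8.83 in undifferentiated cells, 9.43, 9.39 and 9.34 at day 4, 8.98, 9.05 and 8.92 with DMSO, and 8.77, 8.84 and 8.89 with ATRA. In siPRMT1 they read 9.10, 8.78 and 8.99, then 9.95, 9.85 and 9.98, then 10.35, 10.43 and 10.34, then 10.22, 10.16 and 10.11. The siPRMT1 embryoid bodies were the 3 highest groups, separate from each other and from siSCR day 4, and the 4 lowest groups overlapped with their neighbours. Krt18 rose at day 4 by 0.65 ± 0.070 in siSCR (limma adjusted p = 2.12e-07) and by 0.97 ± 0.070 in siPRMT1 (limma adjusted p = 4.9e-10). The difference of 0.32 ± 0.098 between these rises had a limma adjusted p of 0.0227 and was lost in 4 of 10 other settings, with 0.20 under quantile normalization, and in 5 of 12 fits without an array (limma adjusted p up to 0.0765). The lines differed by 0.54 ± 0.070 at day 4 (limma adjusted p = 1.12e-05), 1.39 ± 0.070 with DMSO (limma adjusted p = 6.51e-13) and 1.33 ± 0.070 with ATRA (limma adjusted p = 1.06e-12). In undifferentiated cells the arrays of the lines overlapped. The difference of 0.22 ± 0.070 there (limma adjusted p = 0.0288) was called in 2 of 6 fits without an array, and was 0.11 with array weights (limma adjusted p = 0.133) and 0.15 without the first siPRMT1 array (limma adjusted p = 0.186).

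Krt19, the gene of another type I keratin, had an order of groups unlike that of Krt8 and Krt18. On the siSCR arrays it read 8.18, 8.04 and 8.11 in undifferentiated cells, 9.16, 9.23 and 9.19 at day 4, 10.37, 10.10 and 10.05 with DMSO, and 9.90, 9.48 and 9.57 with ATRA. On the siPRMT1 arrays it read 8.77, 8.76 and 8.80, then 8.67, 8.56 and 8.46, then 8.81, 8.96 and 8.83, then 8.55, 8.38 and 8.41. The siSCR groups spanned the whole range, from the lowest to the 3 highest, and the siPRMT1 groups lay together between them. Only siPRMT1 day 4 and ATRA overlapped as neighbours. In siSCR embryoid bodies of day 4 Krt19 was 1.08 ± 0.095 above undifferentiated cells (2.11-fold, limma adjusted p = 1.25e-08). In siPRMT1 the difference was -0.21 ± 0.095 and was not called (limma adjusted p = 0.0831), although it was in 4 of 10 other settings. The lines differed in this response by -1.29 ± 0.13 (limma adjusted p = 6.98e-07). Krt19 was 0.66 ± 0.095 higher in undifferentiated siPRMT1 cells (limma adjusted p = 3.65e-05). It fell by 0.63 ± 0.095 in siPRMT1 relative to siSCR at day 4 (limma adjusted p = 6.88e-05), by 1.31 ± 0.095 with DMSO (limma adjusted p = 1.76e-10) and by 1.20 ± 0.095 with ATRA (limma adjusted p = 5.69e-10).

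**Figure D2:**
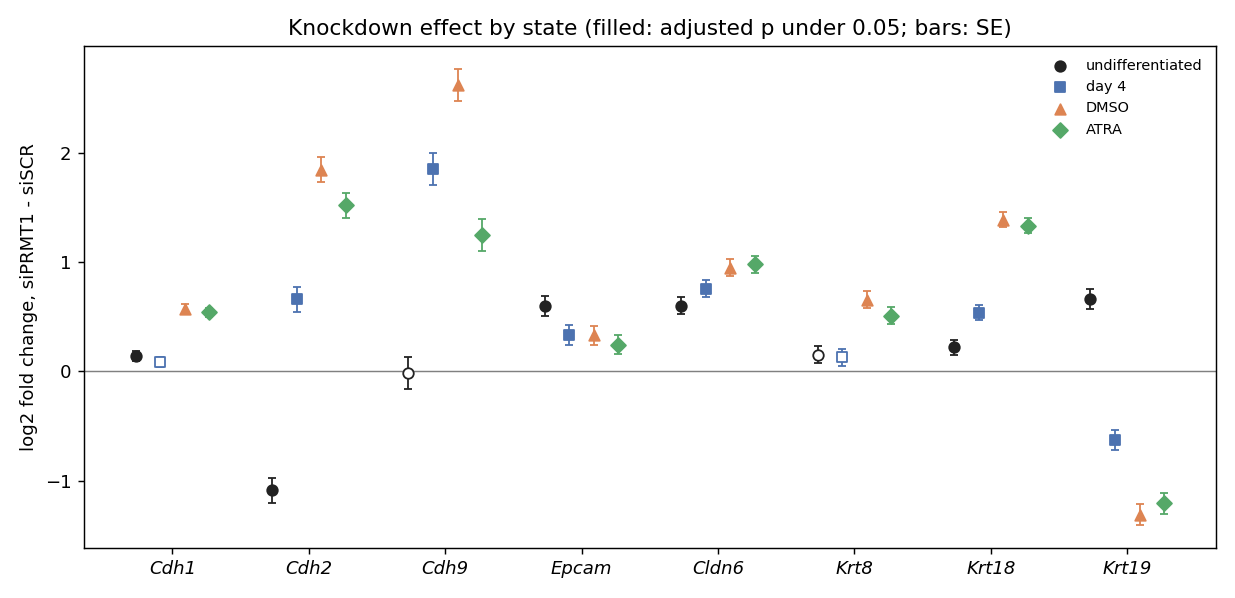
Difference between siPRMT1 and siSCR (vertical axis, log2 fold change) for each gene (horizontal axis) in 4 states. Points are estimates of the limma fit, bars are standard errors, and filled points have an adjusted p under 0.05. Cdh2 lies at -1.09 in undifferentiated cells and above 0.6 in embryoid bodies, and Krt19 lies at 0.66 and then below -0.6.

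The first question of the design is what the knockdown changed in undifferentiated cells. Of the 8 members 5 were higher, 1 was lower (Cdh2) and 2 were not called (Cdh9 and Krt8), where 18.8% of all genes were called (7.63% of all genes higher, 11.2% lower). The members had a median of 0.19 and all genes one of 0.0061. The rises of Cdh1 and Krt18 among them were the unstable ones named above. Among 16 other tight junction genes 8 were higher, 1 was lower and 7 were not called (median 0.22). Cldn7 and Cldn4, which encode further claudins, were higher by 0.55 ± 0.14 (limma adjusted p = 0.0069) and 0.50 ± 0.056 (limma adjusted p = 2.13e-06), and Tjp3, the gene of a scaffold protein of tight junctions, by 0.50 ± 0.068. Of 11 other adherens junction genes 2 were higher, among them the nectin gene Nectin3 (0.31 ± 0.074), and 1 was lower (median -0.055). None of 11 desmosome genes was called by limma, and 0 had an unadjusted p under 0.05.

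Other cadherin genes of types I and II mostly stayed uncalled in undifferentiated cells. Of 15, Cdh4 was higher by 0.27 ± 0.074 and Cdh11, a cadherin of mesenchymal cells, was lower, at -1.06 ± 0.14 (limma adjusted p = 1.18e-05). Of 4 other keratins of the list, Krt17 and Krt42 were lower, at -0.64 ± 0.091 and -0.29 ± 0.062. Genes of proteins that bind or process EpCAM moved both ways, 3 of 7 higher and 3 lower (median -0.060), with the protease inhibitor gene Spint2 at 0.40 ± 0.044, the protease gene St14 at 0.39 ± 0.063 and Cd44 at -0.61 ± 0.066. Of 11 genes of epithelial transcription and splicing factors 2 were lower, and of 7 mesenchymal genes 2, Cdh11 and Vim (-0.15 ± 0.045). Of these, the Vim call was lost in 2 of 3 other scalings, and the calls of the factor genes Esrp2 and Elf3 in 3 and 1. Among 9 genes of transcription factors known to repress Cdh1, 4 were lower and 5 not called (median -0.19): Twist2 stood at -0.82 ± 0.11, Snai2 at -0.62 ± 0.15 and Zeb1 at -0.35 ± 0.053. Twist2 is also in the fibroblast and feeder list, of which 9 of 12 genes were lower here, and the part of that list in these values was not tested. Of all genes called in this comparison 40.6% were higher, and 58.8% after median centring.

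At day 4 the counts of members were the same, but the genes were so only in part. The 5 higher ones were Cdh2, Cdh9, Epcam, Cldn6 and Krt18, Krt19 was lower, and Cdh1 and Krt8 were not called, where 18.4% of all genes were called, 11.4% higher and 7.01% lower. The median was 0.44 over the members and -0.016 over all genes. Of the genes called 61.9% were higher, and 51.2% after quantile normalization. Tight junction genes split, with 6 of 16 higher and 2 lower (median 0.14). Ocln, the occludin gene, was higher by 0.94 ± 0.087 (limma adjusted p = 1.83e-07) and the scaffold gene Patj by 0.72 ± 0.067, whereas Cldn4 was at -0.63 ± 0.056 (limma adjusted p = 8.82e-08). Of 11 desmosome genes the desmocollin gene Dsc2 (0.67 ± 0.096), the plakophilin gene Pkp2 (0.31 ± 0.070) and the desmoplakin gene Dsp (0.17 ± 0.057) were higher and 8 were not called (median 0.071). The Dsp call was lost in 2 of 3 other scalings.

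Cdh9 was not the only cadherin gene raised at day 4. Of 15 other cadherin genes 4 were higher and 11 not called (median 0.0051), with Cdh10 at 1.03 ± 0.10, Cdh6 at 0.81 ± 0.12 and Cdh5 at 0.75 ± 0.11. Of 11 genes of epithelial transcription and splicing factors 3 were higher and 2 lower (median 0.075). Grhl2, a factor that activates Cdh1 in epithelia, was higher by 1.28 ± 0.096 (limma adjusted p = 1.11e-08), and Esrp1, a splicing factor of epithelial cells, by 1.08 ± 0.093 (limma adjusted p = 6.84e-08). Of the 9 repressor genes 1 was called, Snai1, at 0.36 ± 0.087. Of 7 mesenchymal genes 4 were lower and 1 higher (median -0.21), with the fibronectin gene Fn1 at -0.51 ± 0.055, although Cdh2 was higher. Of the 7 EpCAM partner genes 2 were lower, one of them Cd9 (-0.38 ± 0.079), and 1 of 11 adherens junction genes was lower, Afdn (-0.17 ± 0.048). The endoderm list moved with these genes: 11 of its 12 genes were higher in siPRMT1 at day 4, and its mean was 9.51 to 9.72 on the siSCR arrays and 10.37 to 10.48 on the siPRMT1 arrays. Its part in the member differences was not tested.

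**Figure D3:**
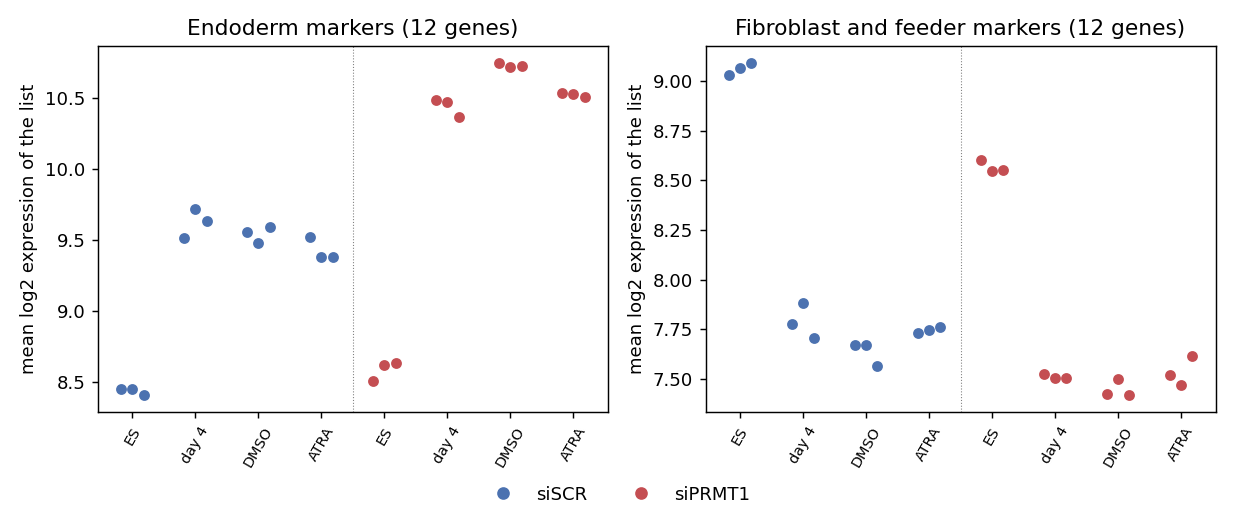
Mean log2 level of 12 endoderm genes (left) and of 12 fibroblast and feeder genes (right) on every array (points), by group, siSCR in blue and siPRMT1 in red. Endoderm means are highest in the siPRMT1 embryoid bodies, at 10.37 to 10.75, and fibroblast and feeder means are highest in undifferentiated siSCR cells, at 9.03 to 9.09.

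With DMSO and with ATRA all 8 members were called between the lines, 7 higher and Krt19 lower. These comparisons cross the border of the 6 siSCR arrays, and 65.9% of all genes were called with DMSO (31.3% higher, 34.6% lower) and 70.1% with ATRA (32.2% higher, 38% lower). Of the calls with DMSO 47.5% were higher; leaving out the dimmest 25% of genes made it 58.3%, and median centring 37.9%. With ATRA these shares were 45.9%, 58.1% and 39.1%. A count of 8 of 8 therefore has to be read against a background in which most genes were called. The member medians were 0.80 and 0.76, those of all genes -0.090 and -0.11. With arrays scaled to one SD 7 of the 8 were called with DMSO and 5 with ATRA, where Cdh1, Epcam and Krt8 dropped out. Cdh2, Cdh9, Cldn6, Krt18 and Krt19 kept their sign and their call in every scaling. Repressor genes of Cdh1 were higher alongside Cdh1: of 9, 5 were higher and 1 lower with DMSO, and 6 higher and 1 lower with ATRA, with Snai1 at 1.16 ± 0.087 and 1.20 ± 0.087. Of 11 other adherens junction genes 10 were higher and 1 lower in both states (medians 0.38 and 0.50), but quantile normalization left 6 and 7 higher. The plakoglobin gene Jup was higher by 0.98 ± 0.067 with DMSO and 1.10 ± 0.067 with ATRA. Unlike at day 4, the mesenchymal genes moved with Cdh2 here. Of the 7, in the main fit, 4 were higher and 0 lower with DMSO, and 6 higher and 0 lower with ATRA (medians 0.42 and 0.43). The fibroblast and feeder list went the other way. Of its 12 genes 1 was higher and 6 lower with DMSO, and 0 higher and 5 lower with ATRA (medians -0.22 and -0.18). Tight junction genes split as at day 4. With DMSO and ATRA Ocln was higher by 0.87 ± 0.087 and 1.24 ± 0.087, and Cldn4 was lower, at -0.89 ± 0.056 and -0.73 ± 0.056. With DMSO 8 of the 16 genes were higher and 3 lower, and 5 higher and 4 lower under quantile normalization. With ATRA 6 were higher and 3 lower, a balance that turned with arrays scaled to one SD, to 4 higher and 5 lower. The endoderm list mean was 9.48 to 9.59 in siSCR and 10.72 to 10.75 in siPRMT1 with DMSO, and its part in the member differences was not tested.

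Embryoid body formation was the second comparison of the design, made within each line. In siSCR 6 members were higher at day 4, Cdh2 was lower and Cdh1 was not called, where 28.2% of all genes were called, 14.5% higher and 13.7% lower. In siPRMT1 5 members were higher (Cdh9, Epcam, Cldn6, Krt8 and Krt18) and 3 were not called (Cdh1, Cdh2 and Krt19), where 41.4% were called, 23% higher and 18.4% lower. Member medians were 0.74 and 0.52, against 0.00067 and -0.043 for all genes. After median centring 66.1% of the genes called in siSCR were higher, in place of 51.3%. In siSCR 9 of 16 tight junction genes were higher and 1 was lower, median 0.30, led by Cldn7 (1.11 ± 0.14), Ocln (1.06 ± 0.087) and Cldn4 (0.94 ± 0.056). In siPRMT1 8 were higher and 2 lower, median 0.15, led by Ocln (1.71 ± 0.087), Patj (1.35 ± 0.067) and Cldn7 (0.89 ± 0.14). Desmosome genes had 4 of 11 higher in each line, with Dsp at 0.84 ± 0.057 and 0.94 ± 0.057.

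Genes of Cdh1 repressors and of epithelial transcription and splicing factors changed at day 4, although Cdh1 itself was not called. Of the 9 repressor genes 7 were lower and 1 higher in siSCR, and 5 lower and 1 higher in siPRMT1 (medians -0.48 and -0.21), with Twist2 at -1.39 ± 0.11 and -0.80 ± 0.11. Esrp1 was higher by 1.07 ± 0.093 in siSCR and 2.04 ± 0.093 in siPRMT1, and Grhl2 by 0.60 ± 0.096 and 1.92 ± 0.096. Among the other cadherins Cdh6 rose in both lines (1.51 ± 0.12 and 2.33 ± 0.12), and Cdh11 fell by 1.92 ± 0.14 in siSCR. Of the 12 endoderm genes 11 were higher in siSCR and 12 in siPRMT1, and of the 12 fibroblast and feeder genes 10 and 11 were lower. The part of either list in the member differences was not tested.

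**Figure D4:**
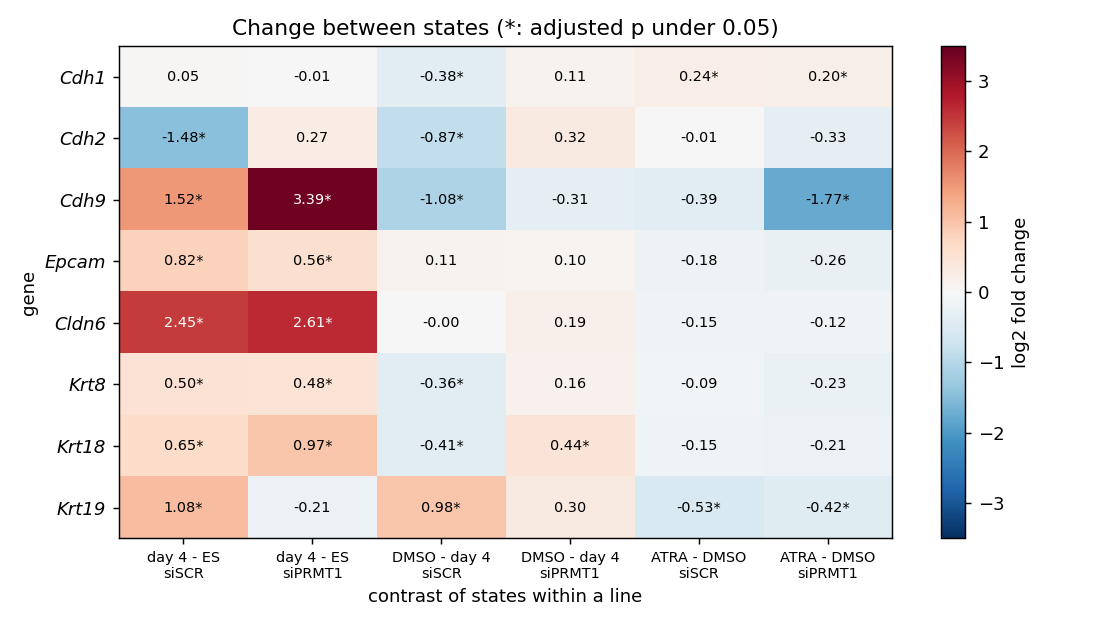
Log2 fold change (colour and printed value) of the 8 genes (rows) for 6 contrasts of states within a line (columns). A star marks an adjusted p under 0.05 in the limma fit. Cldn6 stands out at 2.45 and 2.61 for day 4 against undifferentiated cells, Cdh9 at 3.39 in siPRMT1, and Cdh2 at -1.48 in siSCR against 0.27 in siPRMT1.

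The difference in this response between the lines was called for 4 members, where 23.8% of all genes were called, 15% with a positive and 8.83% with a negative difference. Cdh2, Cdh9 and Krt18 had positive differences and Krt19 a negative one, as given with each gene, and the median was 0.066 over the members and -0.019 over all genes. Cdh1 (-0.057 ± 0.062), Epcam (-0.26 ± 0.13), Cldn6 (0.15 ± 0.11) and Krt8 (-0.023 ± 0.11) were not called. For Epcam the interval reached from -0.52 to 0.0014, and the difference was called in 3 of 10 other settings. Of the genes called 63.0% had a positive difference, and 48.6% after median centring. Among tight junction genes Cldn4 and Tjp3 had negative differences (-1.13 ± 0.079 and -0.74 ± 0.096) and Ocln a positive one (0.65 ± 0.12), with 11 of 16 not called. Grhl2 (1.32 ± 0.14), Esrp1 (0.97 ± 0.13), Cdh5 (1.02 ± 0.16) and Cdh10 (0.99 ± 0.15) had positive differences too. Positive calls came to 3 of 11 epithelial factor genes, 4 of 15 other cadherins and 4 of 9 Cdh1 repressor genes, with 0 negative in each. Of 12 fibroblast and feeder genes 5 were positive and 1 negative. Of 12 endoderm genes 9 were positive and 0 negative (median 0.48). The part of these lists in the member differences was not tested. None of the 4 other keratin genes was called by limma, and 0 had an unadjusted p under 0.05.

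The vehicle comparison sets DMSO embryoid bodies against untreated day 4 embryoid bodies. The DMSO groups are listed with 12 h of treatment and the day 4 groups with none. DMSO and any added time in culture therefore cannot be told apart. In siPRMT1 92 genes, or 0.461%, were called, 0.306% higher and 0.155% lower, and Krt18 was the member among them, at 0.44 ± 0.070 (limma adjusted p = 0.00335). Of the 12 endoderm genes 4 were higher there too, led by Afp (0.88 ± 0.15), Ttr (0.63 ± 0.11) and Apoa1 (0.63 ± 0.082), and their part in the Krt18 difference was not tested. The other 7 members were not called there, with differences from -0.31 (Cdh9) to 0.32 (Cdh2), and 7 of the 8 had an unadjusted p under 0.05. In siSCR the comparison crosses the border, and 61.1% of all genes were called, 30.8% higher and 30.3% lower (50.4% of calls higher, 62.0% after median centring). The 5 members that were lower there were Cdh9 at -1.08 ± 0.15, Cdh2 at -0.87 ± 0.11, Krt18 at -0.41 ± 0.070, Cdh1 at -0.38 ± 0.044 and Krt8 at -0.36 ± 0.078. Krt19 was higher by 0.98 ± 0.095, and Epcam (0.11 ± 0.089) and Cldn6 were not called. Epcam was called higher under all 3 other scalings, at 0.21 to 0.35 (limma adjusted p = 0.0034 to 0.048), and without the second siSCR DMSO array, at 0.26 (limma adjusted p = 0.0038). Cldn6 was called higher with arrays scaled to one SD, at 0.32 (limma adjusted p = 0.00314). The calls of Cdh1 and Krt8 were lost with arrays scaled to one SD, where Cdh1 had -0.084 and Krt8 -0.11, and that of Krt18 with quantile normalization, at -0.13. In the main fit 7 of 7 mesenchymal genes were lower in this siSCR comparison (median -0.52), where Cdh2 was lower too.

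ATRA was set against DMSO in each line to ask which genes answer to retinoic acid. Cdh9 had the largest member response: in siPRMT1 it fell by 1.77 ± 0.15 (limma adjusted p = 1.87e-08), to 29.4% of its DMSO level. On the siSCR arrays Cdh9 read 5.82 to 5.91 with ATRA, within its 5.75 to 5.93 in undifferentiated cells. Both lay below the lowest array median of 7.47. In siSCR the DMSO arrays of Cdh9 read 6.14 to 6.39, against 8.70 to 9.02 in siPRMT1. The part of this lower start in the response was not tested. The siSCR response to ATRA was -0.39 ± 0.15 and was not called (limma adjusted p = 0.0595). It was called in 5 of 9 other settings, among them all 3 scalings, at -0.45 to -0.53 (limma adjusted p = 0.0215 to 0.0326). The lines differed in this response by -1.38 ± 0.21 (limma adjusted p = 0.000616), with no other member called (3.24% of all genes called, 1.32% with a negative difference). That contrast sets a response within the 6 siSCR arrays against one outside them, so the line and the border cannot be told apart in it. Cdh1 was higher with ATRA by 0.24 ± 0.044 in siSCR (limma adjusted p = 0.000627) and by 0.20 ± 0.044 in siPRMT1 (limma adjusted p = 0.00297). Krt19 fell by 0.53 ± 0.095 in siSCR (limma adjusted p = 0.00048) and by 0.42 ± 0.095 in siPRMT1 (limma adjusted p = 0.00389).

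In siSCR, Cdh1 and Krt19 were the 2 members called, where 23.4% of all genes were, 11.2% higher and 12.2% lower. A fit to these 2 groups alone called 0 members by limma, with 3 at an unadjusted p under 0.05. In siPRMT1 3 members were called, where 12% of all genes were, 6.05% higher and 5.94% lower. The 5 others had limma adjusted p between 0.0566 and 0.423 and differences from -0.12 (Cldn6) to -0.33 (Cdh2). Several were called in other settings, up to 8 of 8 members with array weights. That setting called 7640 of all 19938 genes in this comparison, against 2391 in the main fit. After median centring the share of higher calls was 27.4% in siSCR, in place of 47.8%, and 35.1% in siPRMT1, in place of 50.5%. Member medians were -0.15 in siSCR and -0.25 in siPRMT1, against 0.028 and 0.025 for all genes. Grhl2 fell with ATRA by 1.54 ± 0.096 in siPRMT1 (limma adjusted p = 2.49e-10), and Esrp1 fell by 0.62 ± 0.093 in siSCR and 0.65 ± 0.093 in siPRMT1. Of 15 other cadherins 4 were higher and 2 lower in siSCR (median 0.066), and 0 higher and 5 lower in siPRMT1 (median -0.063). Among them Cdh3 was at -0.46 ± 0.086 in siSCR and -0.82 ± 0.086 in siPRMT1, and Cdh10 at -0.60 ± 0.10 in siPRMT1. In siSCR Cdh7 was higher, at 0.35, and Cdh11 lower, at -0.47. The repressor genes Zeb2 and Zeb1 were higher in siPRMT1 by 0.71 ± 0.073 and 0.39 ± 0.053, while no repressor gene was called in siSCR by limma (2 of 9 at an unadjusted p under 0.05).

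The genes whose levels followed each member most closely over the 24 arrays were found among about 7475 genes whose group means had an SD of at least 0.25. For Cldn6 they were Pga5 (r = 0.995), Ctsh (r = 0.991) and the endoderm gene Ttr (r = 0.986), and r over the 18 arrays was 0.992 to 0.995. For Cdh9 they were Slc9a7, Spata13 and Naip6 (r = 0.965 to 0.971), for Krt18 the laminin gene Lamc1, Mogat2 and Gpc6 (0.964 to 0.973), and for Krt8 Stard10, Stx3 and Gnptg (0.943 to 0.966). Epcam was followed by Fabp3, Npl and Ifi30 (0.941 to 0.946) and Cdh2 by Epb41l3, Parp12 and Gnai1 (0.956 to 0.971). Cdh1 was followed by Ldlrad3, Lnx2 and Chd7 (0.943 to 0.966) and Krt19 by Kdm4c, Rdh11 and Arhgap12 (0.945 to 0.955). The likeness was lower over the 18 arrays outside the border for Cdh1 (r of 0.848 to 0.923), Krt19 (0.779 to 0.911) and Cdh2 (0.910 to 0.946). Among the members themselves, Cldn6 and Epcam correlated at 0.911 over 24 arrays, and Cdh2 and Krt19 ran opposite, at -0.899 over 24 and -0.790 over 18. All of these points share arrays and groups, and the values are descriptions.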

How the data were processed

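Total RNA of 24 samples was labelled with the WT Expression kit and hybridised to Affymetrix whole-transcript arrays, per the labels' protocols. The authors deposited 1 table of log2 values per probe set. Their background correction, normalization and summary were not given in the sources used here. Values ran from 2.14 to 14.5, and array medians lay between 7.47 and 7.67. Of 35556 probe sets, 21789 were annotated to 1 symbol, 1621 to several and 12146 to none. The sets with 1 symbol were reduced to the brightest set per gene over the 24 arrays, which left 19938 genes, 999 of them with more than 1 set. The level of one gene's probes was not set against that of another's.

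Group means were fitted to the 24 arrays with limma 3.58.1 in R 4.3.3 and compared in 12 contrasts, with Benjamini-Hochberg adjustment over 19938 genes. The fit was tested on simulated data. The members and the gene lists were chosen with earlier results of these data known. Genes of the lists were named where they were among the 3 called genes of a list with the largest change in a contrast, and list counts leave out the 8 members. List symbols without a matched probe set were not used here. Alternatives were 3 scalings, a filter on dim genes, other variance models, array weights, a fit to the compared groups only, a replicate block, and fits without single arrays or without the 6 siSCR arrays from DMSO and ATRA. Same-numbered replicates deviated together (r over 0.1) in 5 of 30 pairs of arrays, and in 0 of 10 comparisons for all 3 numbers. The numbers were therefore not taken as a pairing. Promoter windows are RefSeq's (GRCm38.p6).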

Additional observations from a re-analysis of the deposited data

Results flagged for a closer look

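The response to embryoid body formation differed between the lines, by an interaction term in limma, for 4 members. Of all genes 23.8% were called in this term, 15% with a positive and 8.83% with a negative difference. Prmt1 itself kept 38.6% of the control level in undifferentiated cells and 64.6% at day 4. The part of this change in these terms was not tested. Cdh2 differed by 1.74 ± 0.16 (limma adjusted p = 1.46e-07): it was lower in all 3 siSCR day 4 arrays than in any undifferentiated siSCR array, and higher in all 3 siPRMT1 day 4 arrays than in any undifferentiated siPRMT1 array. Cdh9 differed by 1.87 ± 0.21 (limma adjusted p = 1.43e-06), with a rise in both lines. Krt18 differed by 0.32 ± 0.098 (limma adjusted p = 0.0227), with a rise in both lines, and this call was lost in 4 of 10 other settings, among them all 3 scalings, and in 5 of 12 fits without an array. Krt19 differed by -1.29 ± 0.13 (limma adjusted p = 6.98e-07), with a rise in siSCR and -0.21 ± 0.095 in siPRMT1. The response to ATRA differed for Cdh9, by -1.38 ± 0.21 (limma adjusted p = 0.000616), in a contrast that crosses the border of the 6 siSCR arrays. In that contrast 3.24% of all genes were called, 1.32% with a negative difference. With DMSO the Cdh9 level was lower in siSCR than in siPRMT1, and the part of this in the term was not tested.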

How the results depend on the processing

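Of the member values under the alternatives that keep every replicate, 836 kept their direction and side of the threshold, 53 gained and 19 lost a call, and 12 changed sign. Of those without 1 array, 636 kept both, 4 gained and 16 lost a call, and 16 changed sign. The count of members called moved by over 1.5 times in 5 comparisons. For siPRMT1 against siSCR with ATRA it was 5 in place of 8 with arrays scaled to one SD. For the vehicle in siPRMT1 it was 5 with array weights and 3 without the 6 siSCR arrays (an alternative chosen after seeing the data), in place of 1. For ATRA in siSCR it was 5 after median centring and 0 with only the groups compared (3 at an unadjusted p under 0.05), in place of 2 in limma. For ATRA in siPRMT1 it was 7 after centring, 7 without the dimmest 25% of genes, 8 with array weights, 6 with trend and robust variance, 6 with only the groups compared and 6 without the 6 siSCR arrays, in place of 3. For the ATRA response by line it was 1 to 2 without single arrays, and 2 without the first siSCR DMSO array, where Cdh2 stood at -0.50 (limma adjusted p = 0.0345). The causes were not tested.

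Of the called values, Epcam for siPRMT1 against siSCR with ATRA changed sign, at -0.071 under quantile normalization. The other reversals were of values not called. Cdh9 in undifferentiated cells was 0.034 after centring and -0.16 to 0.056 without single arrays. Cdh1 for embryoid bodies in siPRMT1 was 0.00069 after centring, 0.0074 with array weights and -0.024 to 0.016 without single arrays. Krt8 for embryoid bodies by line was 0.023 with array weights and -0.098 to 0.028 without single arrays. Cldn6 for the vehicle in siSCR was 0.11 under quantile normalization, 0.093 after centring, 0.32 with arrays scaled (limma adjusted p = 0.00314), 0.011 with array weights and -0.080 to 0.065 without single arrays. For ATRA in siSCR, Krt8 was 0.0051 under quantile normalization and Cdh2 was -0.12 to 0.17 without single arrays. For ATRA by line, Cldn6 was -0.022 under quantile normalization, -0.022 with arrays scaled and -0.043 to 0.10 without single arrays, and Epcam was -0.18 to 0.062 without single arrays.

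The count of all genes called rose with array weights from 3747 to 7218 for the knockdown in undifferentiated cells, from 3669 to 6106 at day 4, from 5632 to 8969 for embryoid bodies in siSCR, from 4754 to 7688 for that response by line and from 2391 to 7640 for ATRA in siPRMT1. For ATRA in siSCR it fell from 4663 to 1567 with array weights and to 544 with only the groups compared. For ATRA by line it was 646, 135 with only the groups compared and at its lowest 304 without single arrays. For the vehicle in siPRMT1 it was 92, 60 with arrays scaled, 2536 with array weights, 145 with trend and robust variance, 286 without the 6 siSCR arrays and at its lowest 29 without single arrays.

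The replicate block changed 1 member call: Cdh2 for ATRA in siPRMT1 had a limma adjusted p of 0.0486 with the block, which gave 4 members called in place of 3. The number of arrays limits what could be called: the standard error of a member difference between 2 groups was 0.044 (Cdh1) to 0.15 (Cdh9), and spot background is not given in the table.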
